A study of Homo sapiens with 4 samples.

Results

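The receptor tyrosine kinase genes MET, MST1R, EGFR, ERBB2, ERBB3 and IGF1R and the EGF family ligand genes AREG, EREG, HBEGF and TGFA were followed in C14orf159 knockout HCT116 cells. The 10 genes were picked by symbol from the deposited expression files, which list 26255 genes, and all 10 had a row. HCT116 is an established human colorectal carcinoma line. The KO group held 2 libraries of cells with a C14orf159 knockout, whose columns are headed sgDGLUCY, after the current symbol of the gene. The EV control group held 2 libraries of HCT116 cells that the labels describe as transfected with an empty vector, while their columns are headed AAVS1, a genomic site commonly cut as a neutral control. Neither age, dose nor culture time is given, and the labels do not say whether the libraries of a group come from separate cultures, clones or pools. The p-values therefore reflect only how far these libraries vary, and that variation may be technical. The study asked why loss of this mitochondrial matrix protein alters migration, invasion and spheroid growth.

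As background, receptor tyrosine kinases span the plasma membrane and signal as pairs, which in many of them a ligand brings together. The ERBB receptors bind ligands of the EGF family, which are made as membrane-bound precursors and released by ADAM proteases, MET binds hepatocyte growth factor (HGF), its relative MST1R binds the product of MST1, and IGF1R binds insulin-like growth factors. All of them feed the RAS-ERK and PI3K-AKT cascades. In the intestinal epithelium these receptors are known for control of proliferation, survival and scattering of cells, and AREG and EREG are widely measured in colorectal cancer.

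Values were taken to be FPKM, the fragment density along a transcript scaled to library depth, which allows levels to be set side by side between genes. No file header names the unit, and it was inferred from the Cuffnorm step in the submitters' processing notes and from the shape of the tables. The periodicity of low values in single-transcript genes gave rough depths of 12.3 and 12.8 M (mega) fragments in the KO libraries and of 13.2 and 13.5 M in the EV control libraries. C14orf159 itself had 2.52 and 10.8 FPKM in the KO libraries, against 16.2 and 16.4 FPKM in the EV control libraries. KO replicate 1 thus held 15.5% of the EV control mean and KO replicate 2 66.2%, and the KO libraries differed from each other (difference -1.74, adjusted p = 0.00314 in the 3-level limma fit described below). Most of the target transcript was therefore still measured in the library labelled KO replicate 2, and protein was not measured in these files. KO is used below as the labels' name for both libraries. Of 10 colorectal epithelial markers, 7 reached 1 FPKM in at least 1 library, with a summed level of 3351 to 3716 FPKM in KO and 3373 to 3546 FPKM in EV control. Among those that did not are VIL1 (villin), CDX1, listed at 0 in every library, and CEACAM5. No fibroblast marker (0 of 6) and no endothelial marker (0 of 5) reached 1 FPKM, while 2 of 5 leukocyte markers did, CD68 (1.90 and 2.87 FPKM in KO, against 2.47 and 1.88 FPKM in EV control) and LYZ (1.0004 and 0.702 FPKM in KO, against 1.31 and 1.17 FPKM in EV control). The summed level of the leukocyte markers was 2.897 to 3.65 FPKM in KO and 3.05 to 3.78 FPKM in EV control, with PTPRC and CD3E listed at 0 in all libraries. None of the 10 receptor and ligand genes lies on chromosome 14, where C14orf159 lies.

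MET and the ligand genes AREG and HBEGF were higher in both KO libraries than in either EV control library, by 1.40, 1.503 and 1.43 times on group means. ERBB2 did not overlap either, with a ratio of 1.12. EGFR was lower in KO replicate 2 and level with the controls in KO replicate 1. EREG, TGFA, ERBB3, MST1R and IGF1R overlapped between the groups. None of the 10 passed the test of KO against EV control over all 12701 tested genes (limma with a mean-variance trend on log2(FPKM + 1), Benjamini-Hochberg adjusted p under 0.05), against 0.0551% of tested genes called higher and 0.0551% called lower. At an unadjusted p under 0.05, 3 of the 10 were higher (AREG, HBEGF and MET) and 0 lower, against 9.23% of all tested genes higher (1172) and 7.22% lower (917). The share of all tested genes whose groups did not overlap was 26.5% with KO higher and 25.6% with KO lower, against 4 and 0 of the 10 here, so 4 non-overlapping genes of 10 are not far from the share in the whole table. The median difference of the 10 was 0.09 on the log2(FPKM + 1) scale, against 0.00 over all tested genes.

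**Figure D1:**
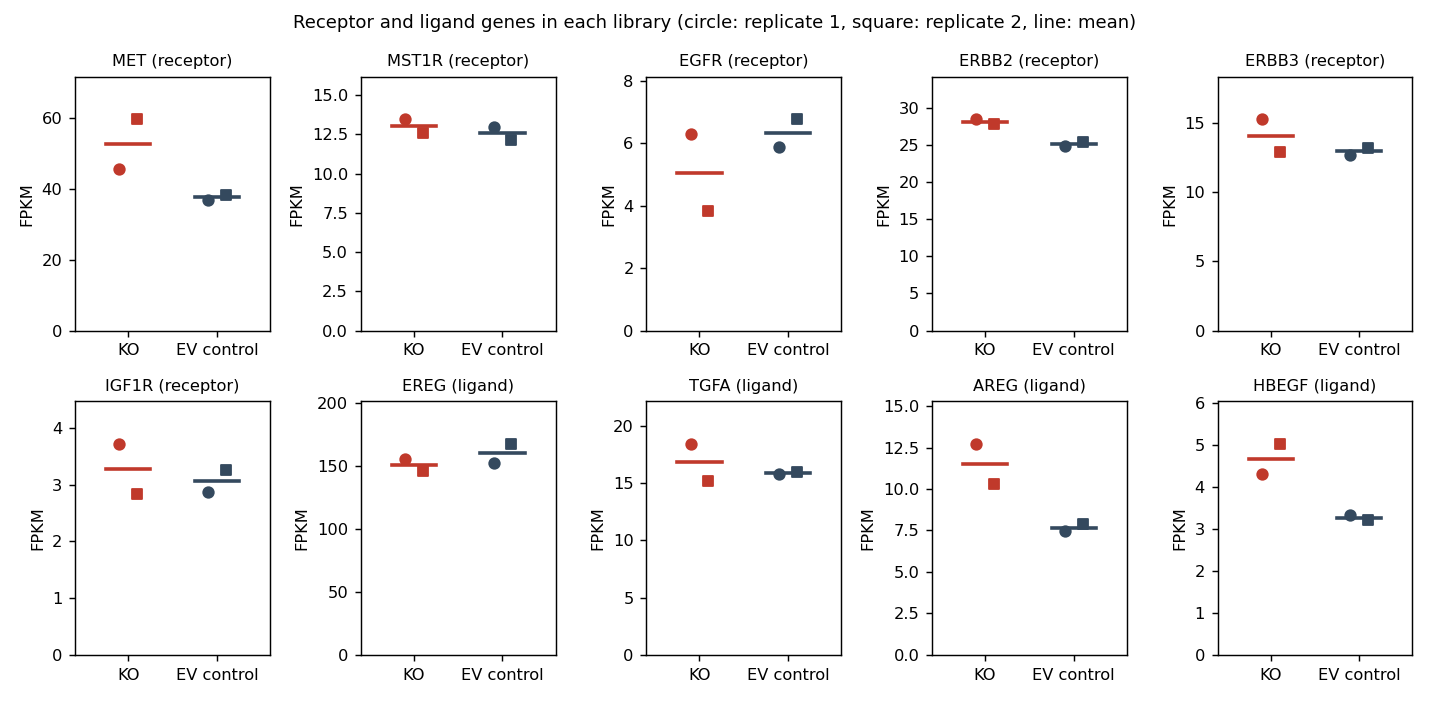
FPKM of the 6 receptor and 4 ligand genes in each library, KO left and EV control right in each panel, on axes that start at 0; points are libraries and lines group means of 2 libraries. MET, ERBB2, AREG and HBEGF have both KO points above both EV control points, and the KO points of EGFR lie far apart at 6.30 and 3.82 FPKM.

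Among the receptors, MET, the HGF receptor, had 45.7 and 59.7 FPKM in the KO libraries, against 37.0 and 38.3 FPKM in the EV control libraries. Both KO libraries were above both controls, and KO replicate 2 was the highest. The group difference was 0.46 on the log2(FPKM + 1) scale (SE 0.14, adjusted p = 0.250). MST1R, the MET relative also called RON, had 13.5 and 12.6 FPKM in KO and 12.98 and 12.16 FPKM in EV control, with overlapping groups and a difference of 0.05 (SE 0.09).

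EGFR, which binds EGF, TGFA, AREG, HBEGF and EREG, had 6.30 and 3.82 FPKM in KO, against 5.86 and 6.76 FPKM in EV control. KO replicate 1 lay between the controls and KO replicate 2 below both. The group difference of -0.30 had an SE of 0.22 and an adjusted p of 0.530. ERBB2, the partner receptor that has no known ligand of its own, had 28.4 and 27.8 FPKM in KO and 24.9 and 25.3 FPKM in EV control. Its groups did not overlap and its replicates lay close together, and the difference was 0.16 (SE 0.07, adjusted p = 0.363). MIEN1, which overlaps ERBB2 on the other strand in GENCODE release 29, had 72.6 and 99.7 FPKM in KO and 66.9 and 63.1 FPKM in EV control. The strand setting of the counting is not stated in the sources used here, so reads of the shared stretch cannot be assigned, and their part in the ERBB2 value was not tested.

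ERBB3, a neuregulin receptor with a weak kinase that acts through partners such as ERBB2, had 15.3 and 12.9 FPKM in KO and 12.7 and 13.2 FPKM in EV control, so KO replicate 2 lay between the controls (difference 0.11, SE 0.11). IGF1R, the receptor of insulin-like growth factors, was the lowest of the 10 in both groups, with 3.72 and 2.83 FPKM in KO and 2.87 and 3.25 FPKM in EV control. Its groups overlapped (difference 0.07, SE 0.15). For MST1R, ERBB3 and IGF1R the difference was smaller than or about as large as its standard error, which does not show that they were equal.

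Among the ligands, AREG, which encodes amphiregulin, had 12.7 and 10.3 FPKM in KO, against 7.45 and 7.88 FPKM in EV control. It had the smallest p of the 10 genes, with both KO libraries well above both controls (difference 0.53, SE 0.12, unadjusted p = 0.00851, adjusted p = 0.208). HBEGF, the heparin-binding EGF-like factor, had 4.29 and 5.02 FPKM in KO and 3.32 and 3.20 FPKM in EV control. Again both KO libraries were above both controls (difference 0.41, SE 0.11, adjusted p = 0.232). These levels rest on few fragments, an estimated 194 and 164 in KO and 122 and 132 in EV control for AREG, and 126 and 154 in KO and 105 and 103 in EV control for HBEGF. Counting error alone is then 7.17% to 9.04% of the AREG value and 8.07% to 9.85% of the HBEGF value, against 1.40% to 1.75% for MET. The AREG level carries a further uncertainty, since AREGB, a name that RefSeq now gives as a synonym of AREG, stood for a near-identical second copy in older assemblies, and reads shared with it may have been split or dropped in the AREG row.

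EREG, which encodes epiregulin, was by far the most abundant of the 10, with 155.8 and 146.2 FPKM in KO and 152.6 and 167.8 FPKM in EV control. KO replicate 1 lay between the controls and KO replicate 2 below both, and the difference of -0.08 had an SE of 0.09. TGFA, transforming growth factor alpha, had 18.4 and 15.1 FPKM in KO and 15.8 and 16.0 FPKM in EV control. Its KO libraries lay on either side of the controls (difference 0.07, SE 0.11).

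AREG and EREG lie next to each other on chromosome 4, with 0 protein-coding genes between them in the RefSeq order, and AREG passed in each KO library set alone against the controls, as given below, while EREG did not pass in either. The promoter windows of this pair are shown with that of MET, so that their letters can be compared beside these values. MET was higher in both KO libraries than in either control, as was ERBB2, whose window is not printed. Each window runs from 250 bases before to 50 bases after the start of the gene, read 5′ to 3′ on the gene's strand, from RefSeq on build GRCh38.p14. Capitals mark a match to the cyclic AMP response element TGACGTCA, the AP-1 motif TGANTCA, the hypoxia response core ACGTG or the TCF/LEF motif CTTTGAT, searched on both strands.
MET, chr7:116671946-116672245, plus strand: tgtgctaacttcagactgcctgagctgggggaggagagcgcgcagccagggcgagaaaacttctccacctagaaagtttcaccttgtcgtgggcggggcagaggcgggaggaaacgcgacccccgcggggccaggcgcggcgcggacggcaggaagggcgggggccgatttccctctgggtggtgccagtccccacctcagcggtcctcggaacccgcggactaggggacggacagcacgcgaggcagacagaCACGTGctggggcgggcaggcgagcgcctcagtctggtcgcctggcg
AREG, chr4:74444886-74445185, plus strand: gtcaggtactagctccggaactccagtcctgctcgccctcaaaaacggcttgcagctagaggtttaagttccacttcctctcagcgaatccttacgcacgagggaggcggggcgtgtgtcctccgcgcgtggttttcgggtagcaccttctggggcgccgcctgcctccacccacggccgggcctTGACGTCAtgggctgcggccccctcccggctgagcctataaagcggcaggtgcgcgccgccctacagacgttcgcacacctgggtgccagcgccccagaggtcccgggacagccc
EREG, chr4:74364895-74365194, plus strand: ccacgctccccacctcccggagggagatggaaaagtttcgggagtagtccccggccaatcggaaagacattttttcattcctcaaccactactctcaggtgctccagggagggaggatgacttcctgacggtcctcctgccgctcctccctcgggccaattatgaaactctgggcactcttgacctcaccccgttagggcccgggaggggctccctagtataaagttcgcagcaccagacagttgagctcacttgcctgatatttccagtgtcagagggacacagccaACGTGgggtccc

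The AREG window holds 1 full cyclic AMP response element, starting 65 bases before the gene start, and it is the only one among the 9 of the 10 genes with an entry in the table (ERBB3 had none). That motif was found in 1.98% of 27305 windows of the same length. The MET window holds the hypoxia core on both strands at overlapping positions, as the palindrome CACGTG from base 4 after the start, and EREG holds it once on the plus strand. IGF1R is the third gene with this core, which 21.6% of all windows hold. Among the 9, AP-1 was found in ERBB2 alone (7.76% of all windows), and TCF/LEF in 0 of the 9 (2.64% of all windows). The GC box GGGCGG was in 7 of the 9, against 44.6% of all windows. It was in MET, MST1R, EGFR, AREG, HBEGF, TGFA and IGF1R, and not in ERBB2 or EREG. It is not capitalised, and in MET and AREG it does not overlap the marked motifs. HBEGF, on chromosome 5, held 5 GC boxes and none of the other motifs. These matches describe letters in the window and say nothing of binding.

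Each KO library was next set against the EV control pair on its own. For this the EV controls, KO replicate 1 and KO replicate 2 were fitted as 3 levels. The residual spread came from the EV control pair alone, so that a lone KO library is assumed to vary as the controls do. That spread has 1 degree of freedom and was moderated towards the trend over all genes, with 4.14 prior degrees of freedom. In KO replicate 1, 2 of the 10 were higher and 0 lower, against 6.28% of all tested genes called higher and 6.83% called lower. In KO replicate 2, 3 were higher and 1 lower, against 10.9% and 6.59% of all tested genes. MET and AREG were among the calls in both.

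MET in KO replicate 1 was at 121% of the EV control mean, a difference of 0.27 (SE 0.06, adjusted p = 0.0460), and in KO replicate 2 at 158.6%, a difference of 0.65 (adjusted p = 0.00837). AREG stood at 166% in KO replicate 1 (difference 0.66, SE 0.08, adjusted p = 0.0154) and at 135% in KO replicate 2 (0.39, adjusted p = 0.0400). HBEGF stood at 132% in KO replicate 1, where it did not pass (adjusted p = 0.105), and at 154% in KO replicate 2, where it did (0.50, SE 0.10, adjusted p = 0.0353). EGFR was at 99.8% in KO replicate 1 (adjusted p = 0.999) and fell to 60.6% in KO replicate 2 (-0.60, SE 0.11, adjusted p = 0.0315). All of these calls in single libraries ended when no filter on low values was applied, with adjusted p from 0.143 for MET in KO replicate 2 to 0.323 for EGFR in KO replicate 2. With quantile normalization MET in KO replicate 1 (0.0526) and AREG and HBEGF in KO replicate 2 (0.0547 and 0.0537) did not pass.

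**Figure D2:**
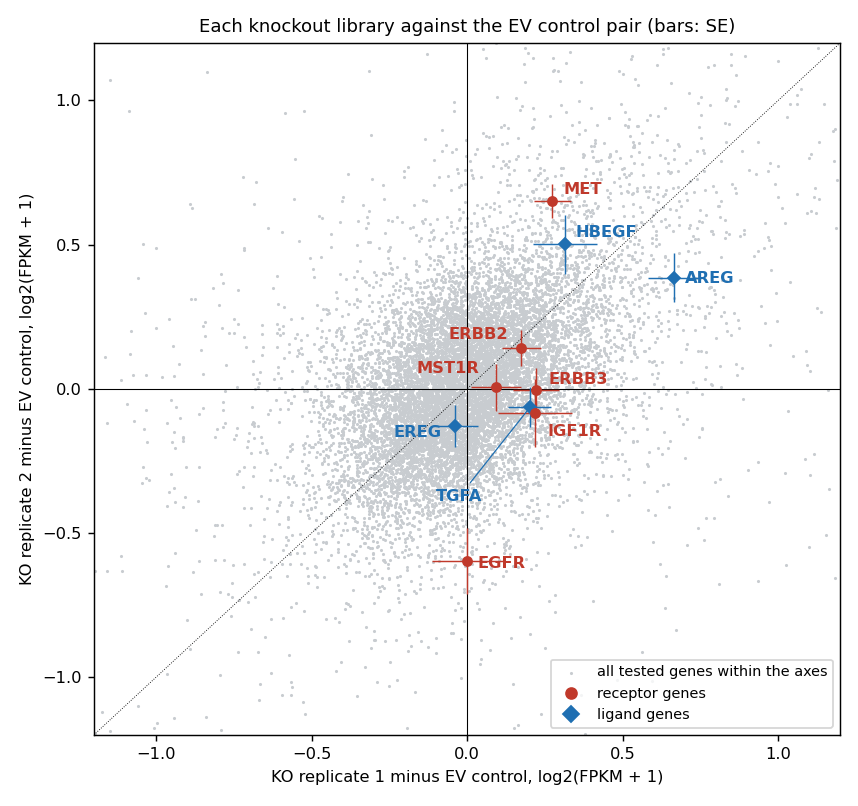
Difference from the EV control pair on the log2(FPKM + 1) scale in KO replicate 1 (horizontal) and KO replicate 2 (vertical). The 10 genes are drawn with standard errors over the tested genes that lie within the axes, in grey. The dotted diagonal marks equal differences. MET, HBEGF and AREG lie in the upper right, with MET at 0.27 and 0.65, and EGFR lies on the vertical axis at -0.60.

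The KO libraries were also compared with each other in the same fit. MET was lower in KO replicate 1 than in KO replicate 2 (difference -0.38, SE 0.07, adjusted p = 0.0387), and it was the 1 gene of the 10 that passed, against 3.35% of all tested genes called higher and 6.84% called lower in KO replicate 1. EGFR was higher in KO replicate 1 by 0.60 (SE 0.13, adjusted p = 0.0532) and missed the threshold. TGFA (0.27, adjusted p = 0.0950), AREG (0.28, adjusted p = 0.126), ERBB3 (0.22, adjusted p = 0.151) and IGF1R (0.30, adjusted p = 0.203) had higher values in KO replicate 1 and did not pass. HBEGF, with -0.19, had the higher value in KO replicate 2 (adjusted p = 0.333).

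The order of levels was the same in both groups by group means, EREG first, then MET, ERBB2, TGFA, ERBB3, MST1R, AREG, EGFR, HBEGF and IGF1R. In KO, 4 pairs of neighbours were not separated in every library, namely TGFA and ERBB3, ERBB3 and MST1R, MST1R and AREG, and EGFR and HBEGF. In EV control these were ERBB3 and MST1R, and HBEGF and IGF1R. MST1R and AREG were thus apart in the EV control libraries (12.98 and 12.16 against 7.45 and 7.88 FPKM) and overlapped in the KO libraries. EGFR and HBEGF overlapped in KO, where EGFR in replicate 2 (3.82 FPKM) was below HBEGF in both replicates.

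The other genes of these pathways were taken from 9 lists. These cover ligands, receptors, processing enzymes, inhibitors, adaptors, membrane partners, IGF and IGF2 mRNA binding proteins, and ERK output genes. The lists hold 124 symbols with the 10 genes included, 123 of which had a row and 101 passed the filter. Over all tested genes 0 of these 101 passed in the group comparison (limma with a trend), while counts at an unadjusted p under 0.05 are to be read against the 9.23% higher and 7.22% lower over all tested genes.

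Of 11 EGF family ligand genes, 6 were tested, 0 passed, and 2 were higher and 0 lower by unadjusted p under 0.05, which were AREG and HBEGF, against 9.23% and 7.22% of all tested genes. BTC, the betacellulin gene, had 2.35 and 1.14 FPKM in KO, against 2.40 and 2.28 FPKM in EV control, and it was lower in KO replicate 2 set against the controls (adjusted p = 0.0316). EGF did not reach the filter and NRG3 was listed at 0 in all. HGF, the MET ligand, was likewise listed at 0 in all libraries, and MST1, the MST1R ligand, had 1.99 and 1.197 FPKM in KO and 1.29 and 1.76 FPKM in EV control.

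The list of HGF, MST1 and IGF ligands had 2 tested genes, with 1 higher and 0 lower by unadjusted p under 0.05. IGF2, which encodes a ligand of IGF1R, had 5.14 and 5.76 FPKM in KO, against 2.29 and 1.87 FPKM in EV control. The KO libraries were at 2.47 and 2.77 times the EV control mean, with a difference of 1.07 (SE 0.13, unadjusted p = 0.000445, adjusted p = 0.121), and IGF2 was called in KO replicate 1 (adjusted p = 0.0160) and in KO replicate 2 (adjusted p = 0.0117) set alone against the controls. The overlapping antisense gene IGF2-AS was at 0.315 and 0.383 FPKM in KO and at 0.149 and 0.0362 FPKM in EV control, and the read-through gene INS-IGF2, which shares its exons, was listed at 0, so the split between these rows is uncertain. IGF1 did not reach the filter. Of 8 tested receptors of the ERBB, MET and insulin families, 1 was higher (MET) and 1 lower (IGF2R) by unadjusted p under 0.05. IGF2R, the receptor that clears IGF2, had 12.97 and 10.7 FPKM in KO and 15.1 and 15.6 FPKM in EV control (difference -0.35, SE 0.11, unadjusted p = 0.0284, adjusted p = 0.265). Both KO libraries were below both controls, and IGF2R was lower in KO replicate 2 set alone against them (-0.48, adjusted p = 0.0205) but did not pass in KO replicate 1 (-0.22, adjusted p = 0.109). INSR, the insulin receptor, had 6.51 and 6.59 FPKM in KO and 5.67 and 5.82 FPKM in EV control (0.16, adjusted p = 0.414).

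The list of IGF binding proteins has 10 symbols and also holds IGF2 mRNA-binding proteins. Of the 10, 4 were tested and 2 were higher and 0 lower by unadjusted p under 0.05, against 9.23% and 7.22% of all tested genes. The 2 higher genes, IGF2BP3 and IGF2BP2, encode mRNA-binding proteins and not secreted IGF binding proteins. IGF2BP3, an RNA-binding protein named for binding IGF2 mRNA, had 26.7 and 23.6 FPKM in KO, against 13.4 and 15.1 FPKM in EV control (difference 0.78, SE 0.10, adjusted p = 0.134). Its relative IGF2BP2 had 61.1 and 59.2 FPKM in KO and 46.9 and 46.4 FPKM in EV control (0.36, SE 0.07, adjusted p = 0.190). Both were called in each KO library alone (adjusted p from 0.0108 to 0.0240). The secreted binding proteins IGFBP2 and IGFBP6 overlapped between the groups, with 93.1 ± 15.0 FPKM in KO and 91.2 ± 3.91 FPKM in EV control for IGFBP2 (SD, n = 2 each).

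Among 9 tested genes for ligand and HGF processing, 2 were higher and 0 lower by unadjusted p under 0.05, against 9.23% and 7.22% of all tested genes. These were RHBDF1, an iRhom that carries the sheddase ADAM17 to the surface, with 5.20 and 5.02 FPKM in KO and 3.89 and 3.96 FPKM in EV control (adjusted p = 0.245), and SPINT1, an inhibitor of pro-HGF proteases, with 54.0 and 63.1 FPKM in KO and 48.3 and 47.2 FPKM in EV control (adjusted p = 0.288). The sheddases ADAM10 (31.9 ± 1.29 FPKM in KO and 36.8 ± 1.84 in EV control) and ADAM17 (13.5 ± 0.627 and 15.1 ± 0.402) had lower KO values in both libraries without passing (adjusted p = 0.331 and 0.417; SD, n = 2 each). In KO replicate 2 set against the controls, 2 genes of this list were higher and 1 lower, against 10.9% and 6.59% of all tested genes. The higher ones were SPINT1 (adjusted p = 0.0185) and ST14, the pro-HGF protease matriptase (59.9 and 75.3 FPKM in KO and 58.8 and 55.6 FPKM in EV control, adjusted p = 0.0221), and the lower one was the metalloprotease gene ADAM9 (adjusted p = 0.0289). KO replicate 1 gave 0 calls in either direction.

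Of 24 tested genes for receptor inhibition and turnover, 1 was higher and 0 lower by unadjusted p under 0.05, against the same shares. Single KO libraries set against the controls gave 1 higher and 1 lower gene in KO replicate 1 (6.28% and 6.83% of all tested genes) and 2 higher and 2 lower in KO replicate 2 (10.9% and 6.59%). The gene higher in the group comparison was SH2B3, an adaptor that restrains receptor signalling, with 8.25 and 8.59 FPKM in KO and 5.98 and 6.46 FPKM in EV control (difference 0.38, SE 0.09, adjusted p = 0.208). ERRFI1, a feedback inhibitor that binds the EGFR kinase, differed between the KO libraries, with 227 and 323 FPKM in KO and 270 and 266 FPKM in EV control; KO replicate 1 was lower than KO replicate 2 (difference -0.51, adjusted p = 0.0175). LRIG1, another EGFR inhibitor, had 2.11 and 1.24 FPKM in KO and 2.30 and 2.49 FPKM in EV control, and was lower in KO replicate 2 set against the controls (adjusted p = 0.0362), as EGFR was.

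The 24 tested adaptor and RAS-ERK cascade genes held 0 higher and 0 lower by unadjusted p under 0.05. The shares over all tested genes were 9.23% and 7.22%, and the median difference of the list was -0.06. Groups did not overlap for 2 genes with KO higher and 7 with KO lower, against 26.5% and 25.6% of all tested genes. PTPN11, RASA1 and BRAF had the smallest p of this list. Their values were lower in both KO libraries than in either control (adjusted p = 0.399, 0.451 and 0.466 in the limma group comparison). The adaptor gene SHC1 had 83.3 and 67.0 FPKM in KO, against 65.6 and 65.9 FPKM in EV control. IRS1, the insulin receptor substrate, had 15.2 and 9.15 FPKM in KO and 12.9 and 13.4 FPKM in EV control. Its KO libraries thus lay on either side of the controls. Of 14 tested membrane partners, 1 was higher and 0 lower at that unadjusted level, against 9.23% and 7.22% of all tested genes. Set alone against the controls, KO replicate 1 had 4 higher and 2 lower genes of this list, against 6.28% and 6.83% of all tested genes, and KO replicate 2 had 2 higher and 1 lower, against 10.9% and 6.59%. SDC4, the heparan sulphate carrier syndecan 4, had 63.9 and 59.1 FPKM in KO and 49.999 and 49.6 FPKM in EV control (difference 0.30, SE 0.08, adjusted p = 0.229). The integrin genes ITGB4 and ITGB1 were higher in KO replicate 1 than in KO replicate 2 (differences 0.57 and 0.41, adjusted p = 0.0149 and 0.0271).

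The genes of that list lower in KO replicate 1 were CD44 and PLXNB2. CD44, an adhesion receptor that acts as a MET co-receptor, had 149.97 and 176.9 FPKM in KO and 186.5 and 185.8 FPKM in EV control (adjusted p = 0.0270 in KO replicate 1 and 0.340 in KO replicate 2). PLXNB2, a semaphorin receptor of the plexin family, had 49.4 and 53.1 FPKM in KO and 59.8 and 58.6 FPKM in EV control (adjusted p = 0.0470 in KO replicate 1 and 0.112 in KO replicate 2). Both had lower values in both KO libraries than in either control, and neither passed in the group comparison (adjusted p = 0.437 for CD44 and 0.310 for PLXNB2).

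**Figure D3:**
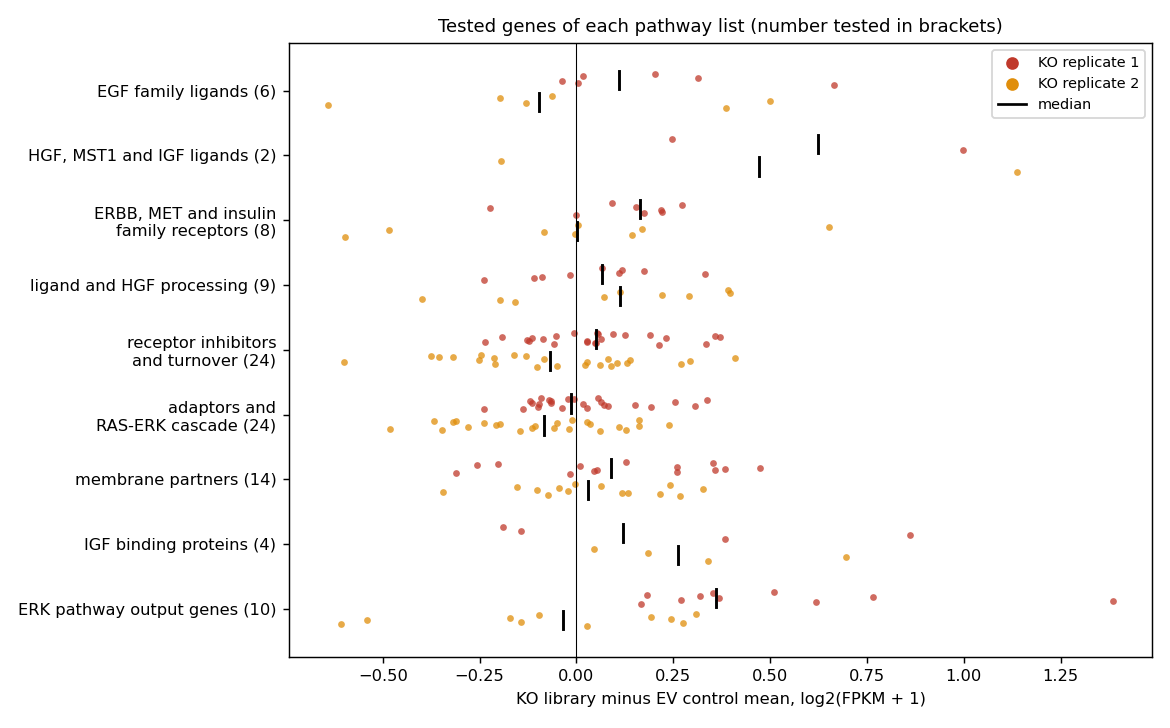
Difference of KO replicate 1 (red, upper row) and KO replicate 2 (orange, lower row) from the EV control mean on the log2(FPKM + 1) scale for the tested genes of each list, with medians as black ticks. The ERK output genes lie at a median of 0.36 in KO replicate 1 and of -0.03 in KO replicate 2.

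The ERK output list holds 10 genes that are commonly read as transcripts driven by ERK activity, and all 10 were tested. In the group comparison 2 were higher and 0 lower by unadjusted p under 0.05, SPRY4 and ETV4, against 9.23% and 7.22% of all tested genes, and the median difference was 0.11. The KO libraries differed in this list: 6 of 10 genes were higher and 0 lower in KO replicate 1 than in KO replicate 2, in the comparison that called 3.35% and 6.84% of all tested genes. Against the EV controls, 5 were higher and 0 lower in KO replicate 1, where 6.28% and 6.83% of all tested genes were called, and 2 were higher and 1 lower in KO replicate 2, where 10.9% and 6.59% were.

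DUSP6, an ERK phosphatase, had 169.6 and 78.0 FPKM in KO, against 66.0 and 62.6 FPKM in EV control. Both KO libraries were above both controls, and KO replicate 1 was 2.64 times the EV control mean and KO replicate 2 1.21 times, a difference between the KO libraries of 1.11 (adjusted p = 0.00455). DUSP4, a nuclear phosphatase of ERK, had 51.1 and 21.2 FPKM in KO and 33.6 and 32.3 FPKM in EV control, so the KO libraries lay on either side of the controls, higher in replicate 1 (adjusted p = 0.0106) and lower in replicate 2 (adjusted p = 0.0101). ETV4, an ETS factor, had 44.6 and 30.8 FPKM in KO and 26.7 and 24.9 FPKM in EV control, and SPRY4, a feedback inhibitor of the pathway, 43.6 and 37.8 FPKM in KO and 31.3 and 29.4 FPKM in EV control. SPRY4 was called in KO replicate 1 (adjusted p = 0.0171) and in KO replicate 2 (adjusted p = 0.0411), as AREG was. The genes of this list called higher in KO replicate 1 than in KO replicate 2 were DUSP6, DUSP4, ETV4, ETV5, EPHA2 and EPHA4. SPRY4 was not among them.

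**Figure D4:**
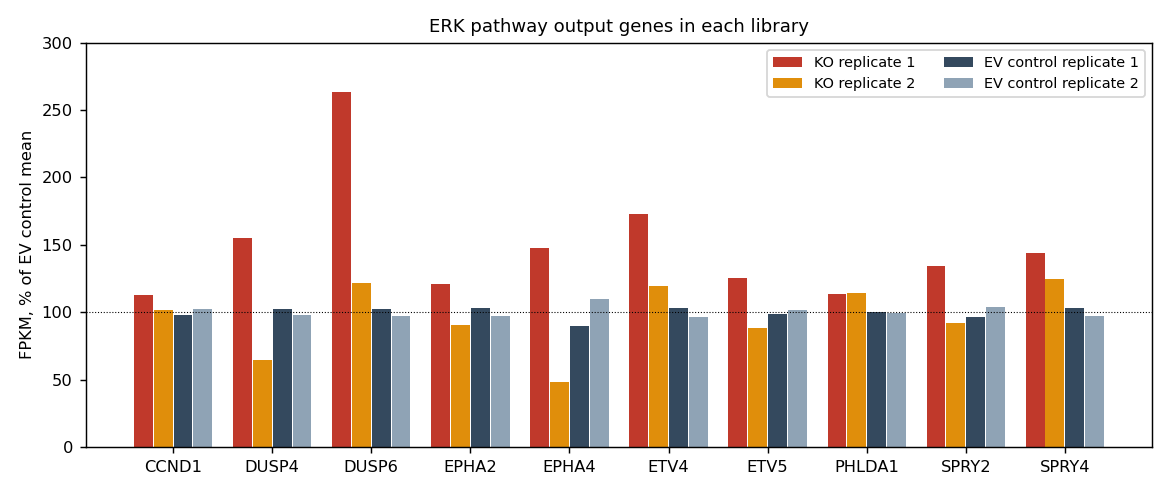
FPKM of the 10 ERK output genes in each library as a percentage of the EV control mean, with bars from 0; KO libraries are red and orange, EV control libraries dark and light blue. DUSP6 in KO replicate 1 stands at 264% and DUSP4 at 155% in KO replicate 1 and 64.6% in KO replicate 2.

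The genes most like AREG over the 4 libraries were sought by Euclidean distance of log2(FPKM + 1) values centred on each gene's mean, among 6789 genes averaging 10 FPKM or more. CSRP2, a LIM domain protein gene, was nearest at a distance of 0.06, with 46.7 and 37.7 FPKM in KO and 28.1 and 31.0 FPKM in EV control. CNN3, the gene of a calponin (distance 0.09), and EXTL3, a heparan sulphate glycosyltransferase gene (0.09), followed. With 4 libraries such likeness is a description of their order and size alone.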

How the data were processed

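RNA of HCT116 cells (miRNeasy kit, TruSeq stranded mRNA libraries, per the labels' protocols) was deposited by the authors as values per gene symbol, 1 file per library. No header names the unit; the deposited values were taken as FPKM from Cuffnorm in the processing notes. Per the submitters' processing notes, TopHat2 2.0.13, Bowtie2 2.2.3, SAMtools 0.1.19, Cuffnorm 2.2.1 and build hg19 were used; annotation, strand setting and scaling are not stated in the sources used here. Values were taken as deposited. Genes with at least 1 FPKM in at least 2 of 4 libraries (12701 of 26255) were fitted across all genes on log2(FPKM + 1), which understates changes of low genes, with limma 3.58.1 in R 4.3.3 (lmFit, eBayes with trend, 2.82 prior degrees of freedom) and Benjamini-Hochberg adjustment at 0.05. The 3-level fit has 1 residual and 4.14 prior degrees of freedom. The fits were tested on simulated data. Fragments were estimated from the period of FPKM times kilobases in 2008 single-transcript genes of 1000 to 6000 nt (GENCODE release 29) and the longest coding transcript. Genes were named by rule: the 10 genes, C14orf159, list genes that passed, up to 4 genes per list by smallest p, and the 3 genes nearest to the member with the smallest p. Further genes, named for calls in a single KO library, were picked after seeing their values. A single gene of the lists enters their counts but has no values reported here. Other list genes, some of them picked by the rule, are also counted without printed values. The members and lists were chosen with earlier results of these data known. Alternatives were 2 pseudocounts, 2 filters, 2 scalings, 2 variance models, omission of small RNA genes, a replicate block and leaving out each library. Outside the replicate block, replicate numbers were not used to pair the libraries. Whether same-numbered libraries belong together was not settled.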

Additional observations from a re-analysis of the deposited data

How the results depend on the processing

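None of the 10 receptor and ligand genes passed in the group comparison under any alternative that kept all 4 libraries and tested them; a filter of 5 FPKM left 8 of them to test, without HBEGF and IGF1R. Counts over all tested genes were 7 higher and 7 lower. They came to 97 and 128 with no filter on low values, to 0 and 0 without small RNA genes (limma, 1225 and 945 at an unadjusted p under 0.05), to 4 lower with quantile normalization and to 3 higher without the trend. With the replicate block they were 4 higher and 8 lower, with 0 of the 10 genes among them; deviations of same-numbered libraries had a correlation of -0.00455 across genes. Leaving out 1 library gave 6 to 1381 higher and 5 to 881 lower genes. The large counts were those without KO replicate 1 or without KO replicate 2, where the residual spread comes from the EV controls alone. Leaving out each library in turn kept the sign of MET (0.27 to 0.65), AREG (0.39 to 0.66), HBEGF (0.31 to 0.50) and ERBB2 (0.14 to 0.17). ERBB3 (-0.0029 to 0.22), TGFA (-0.064 to 0.20) and IGF1R (-0.084 to 0.22) changed sign without KO replicate 1. In single KO libraries, values near 0 changed sign for EGFR in KO replicate 1 (4.46e-05 with a pseudocount of 0.1 and 0.0034 with median-of-ratios scaling), MST1R in KO replicate 2 (-0.0079 with that scaling) and EREG in KO replicate 1 (0.016 with quantile normalization); the cause was not tested. Depth limits AREG and HBEGF most, at 103 to 194 estimated fragments. The alternatives were run for the 10 genes and the counts over all genes, not for single genes of the other lists.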
